A study of Mus musculus with 20 samples.

Results

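Motor and sensory cortex of mice with experimental autoimmune encephalomyelitis (EAE) were compared within each animal. EAE serves as a model of multiple sclerosis: mice immunised with a myelin peptide develop inflammation of the brain and spinal cord and an ascending paralysis. The comparison uses 12 of the 20 arrays of the series, chosen by their titles: 6 of motor cortex and 6 of sensory cortex, 1 pair from each of 6 EAE mice. The other 8 arrays, the same pair of areas from 4 healthy mice, serve to show which area differences were also present without disease.

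All mice were female C57Bl6, 8 to 12 weeks old at injection, with no transgene named in the labels. The EAE motor cortex group and the EAE sensory cortex group came from mice given MOG35-55 peptide, 100 µg into the flanks and 50 µg into the base of the tail, with pertussis toxin (400 ng) on days 0 and 3. Average EAE grades ran from 2.5 to 3.5, and the labels give days 18 to 21 for the disease and day 21 for collection. The healthy motor cortex group and the healthy sensory cortex group came from cage-mates for which no mock injection is described. Each of the 2 cohorts held 3 EAE and 2 healthy mice. The tissue was cut from 1 mm coronal slices with an atlas and is described as enriched for each area, so neighbouring tissue may be included. Hemisphere and the numbers of cells are not stated. In such bulk tissue, fewer cells of a type and less RNA per cell cannot be told apart.

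Motor and somatosensory cortex are parts of the same 6-layered sheet, but differ in how thick each layer is. Primary sensory areas have a broad layer 4, whose small excitatory neurons receive the main thalamic input. Motor cortex has a thin layer 4 and a thick layer 5, whose large pyramidal neurons send axons out of the cortex to the brainstem and spinal cord. Neurons of the layers and areas are told apart by transcription factors, guidance receptors, ion channels and peptides.

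Values are log2 expression as deposited, so a difference of 1 is 2-fold. The medians of the 12 EAE arrays lay between 8.22 and 8.32, and within a group the correlation between arrays was 0.988 to 0.997 across 45101 probe sets. EAE motor mouse 1 and EAE sensory mouse 3 had the narrowest spread of values over probe sets (SD 2.15 and 2.16, against up to 2.23 in the others). EAE sensory mouse 3 also lay farthest from its group's mean (root mean square 0.245, against 0.117 to 0.188 for the other 11 EAE arrays). Its mouse's area differences correlated with those of the other EAE mice at a median of 0.06 across genes, while the medians of the other 5 mice were 0.32 to 0.35. Counts are therefore also given without these mice. Both areas held the markers of cortical tissue at high levels: Slc17a7, the vesicular glutamate transporter of cortical excitatory neurons, had a median of 12.88 in EAE motor and 12.74 in EAE sensory cortex. Gad1, which makes the inhibitory transmitter GABA, ran from 13.04 to 13.45 in motor and from 13.26 to 13.54 in sensory cortex. Neither passed the test between the areas.

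The first question was which genes differed between the areas in diseased mice. Of 18194 genes, 728 (4.00%) had a Benjamini-Hochberg adjusted p under 0.05 in limma with the mouse as a block, and are called below. Motor cortex was higher for 389 of them (2.14%) and sensory cortex for 339 (1.86%), and 2760 genes (15.2%) had an unadjusted p under 0.05. The called differences were mostly small, from 0.19 to 1.97 on the log2 scale with a median of 0.37. At least 2-fold differences were called for 8 genes higher in motor cortex (0.0440%) and 12 higher in sensory cortex (0.0660%). The lowest motor array lay above the highest sensory array for 293 genes (1.61%) and the reverse held for 224 (1.23%), 517 in all (2.84%). All 6 mice were higher in motor cortex for 1189 genes (6.54%) and in sensory cortex for 899 (4.94%). Leaving out 1 mouse at a time gave 315 to 882 calls, with 379 without mouse 2, 316 without mouse 4 and 315 without mouse 5; without mice 1 and 3 there were 621. In each of these settings all 728 genes kept their direction, as they did within cohort 1 and within cohort 2. Single mice had the mean's direction for 722 to 728 of these genes. The genes were selected on these same 6 mice, so a shared direction follows largely from the selection.

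The largest difference toward motor cortex was that of Rspo2, a secreted R-spondin that strengthens Wnt signalling. Its level was lowest at 10.14, had a median of 10.70 and reached 10.95 in EAE motor cortex, against 8.46, 9.11 and 9.66 in EAE sensory cortex. Every motor array lay above every sensory array, and the difference was 1.60 ± 0.17 (SE, n = 6 mice), 3.04-fold, with a limma adjusted p of 0.00141. Crym, a cytosolic thyroid hormone-binding protein, ran from 12.38 to 12.89 with a median of 12.57 in motor and from 10.72 to 11.67 with a median of 11.17 in sensory cortex. The arrays of the areas did not overlap for Crym either, and the difference was 1.43 ± 0.17 (adjusted p = 0.00213).

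The other genes at least 2-fold higher in motor cortex were Tmem232, Spink8, Prss12, Tox, Tnnc1 and 4930447C04Rik, with differences of 1.17, 1.12, 1.08, 1.04, 1.03 and 1.01. Prss12 encodes neurotrypsin, a protease released at synapses, and Tox a nuclear HMG-box protein. Spink8, a protease inhibitor of the Kazal family, had levels of 8.30 to 9.08 in EAE motor and 7.40 to 7.76 in EAE sensory cortex. Tnnc1, the slow troponin C of striated muscle, had levels of 9.85 to 10.69 in motor and 8.80 to 9.84 in sensory cortex, without overlap. The cardiac troponin T gene Tnnt2 differed by 0.87 ± 0.09 and Ryr1, the calcium release channel of the sarcoplasmic reticulum, by 0.86 ± 0.06, both toward motor cortex. A further troponin gene, Tnnt1, went the other way at -0.46 ± 0.09, and lost the call without any of 5 single mice. These genes are best known from muscle, and their levels here were measured in cortex, between 7.38 and 10.69. Doc2a, a calcium sensor of transmitter release, differed by 0.93 ± 0.09, and Aldh1a7, an aldehyde dehydrogenase, by 0.98 ± 0.12. Blnk, the B-cell linker adaptor, differed by 0.99 ± 0.13; its arrays overlapped between the areas (8.98 to 11.52 over both) although all 6 mice were higher in motor cortex.

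The largest difference toward sensory cortex was that of Cyp39a1, an oxysterol hydroxylase gene listed here as a layer 4 marker. It had levels of 6.91, 7.25 and 7.72 (lowest, median and highest) in EAE motor cortex, against 8.77, 9.32 and 9.59 in EAE sensory cortex. All 6 sensory arrays stood above all 6 motor arrays, and the difference was -1.97 ± 0.12, 3.92-fold (adjusted p = 0.000249). Nr4a2, an orphan nuclear receptor of deep-layer and claustral neurons, had levels of 9.11, 9.58 and 10.12 in motor and 10.91, 11.57 and 11.95 in sensory cortex. Its difference of -1.95 ± 0.23 was nearly as large, but the mice differed more, from -2.82 in mouse 6 to -0.88 in mouse 4. Cartpt, which encodes the CART neuropeptide, had levels of 8.02 to 8.72 in motor and 9.24 to 10.29 in sensory cortex, a difference of -1.48 ± 0.09.

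Next came Car3, a carbonic anhydrase, at -1.27 ± 0.13 (its 3 other probe sets stood at -0.10 to 0.09), and Slc17a6, the second vesicular glutamate transporter, at -1.27 ± 0.09. Slc17a6 levels were 9.28 to 9.79 in motor and 10.69 to 11.00 in sensory cortex, without overlap. Slc17a6 is the main glutamate transporter gene of thalamic neurons and is among the thalamus markers described below. The part of thalamic tissue in its difference was not tested. Rspo1, another R-spondin, had levels of 8.79 to 9.44 in motor and 9.72 to 10.50 in sensory cortex, so the R-spondins Rspo2 and Rspo1 were both called, in opposite directions. Rorb, the nuclear receptor that defines layer 4, had levels of 10.57, 10.69 and 10.97 in motor and 11.71, 11.93 and 12.12 in sensory cortex. Its difference of -1.21 ± 0.06 had the smallest adjusted p of all genes named here (0.000206). Kcnab3, a potassium channel β subunit, differed by -1.17 ± 0.09, the collagen genes Col24a1 and Col11a1 by -1.12 ± 0.16 and -1.09 ± 0.14, and Tmem215 by -1.08 ± 0.09. Cbln4, a secreted cerebellin that bridges synapses, differed by -1.06 ± 0.09, the netrin gene Ntn5 by -0.95 ± 0.10, Gm13629 by -0.94 ± 0.11, and Tafa2, a chemokine-like secreted factor, by -0.94 ± 0.07.

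**Figure D1:**
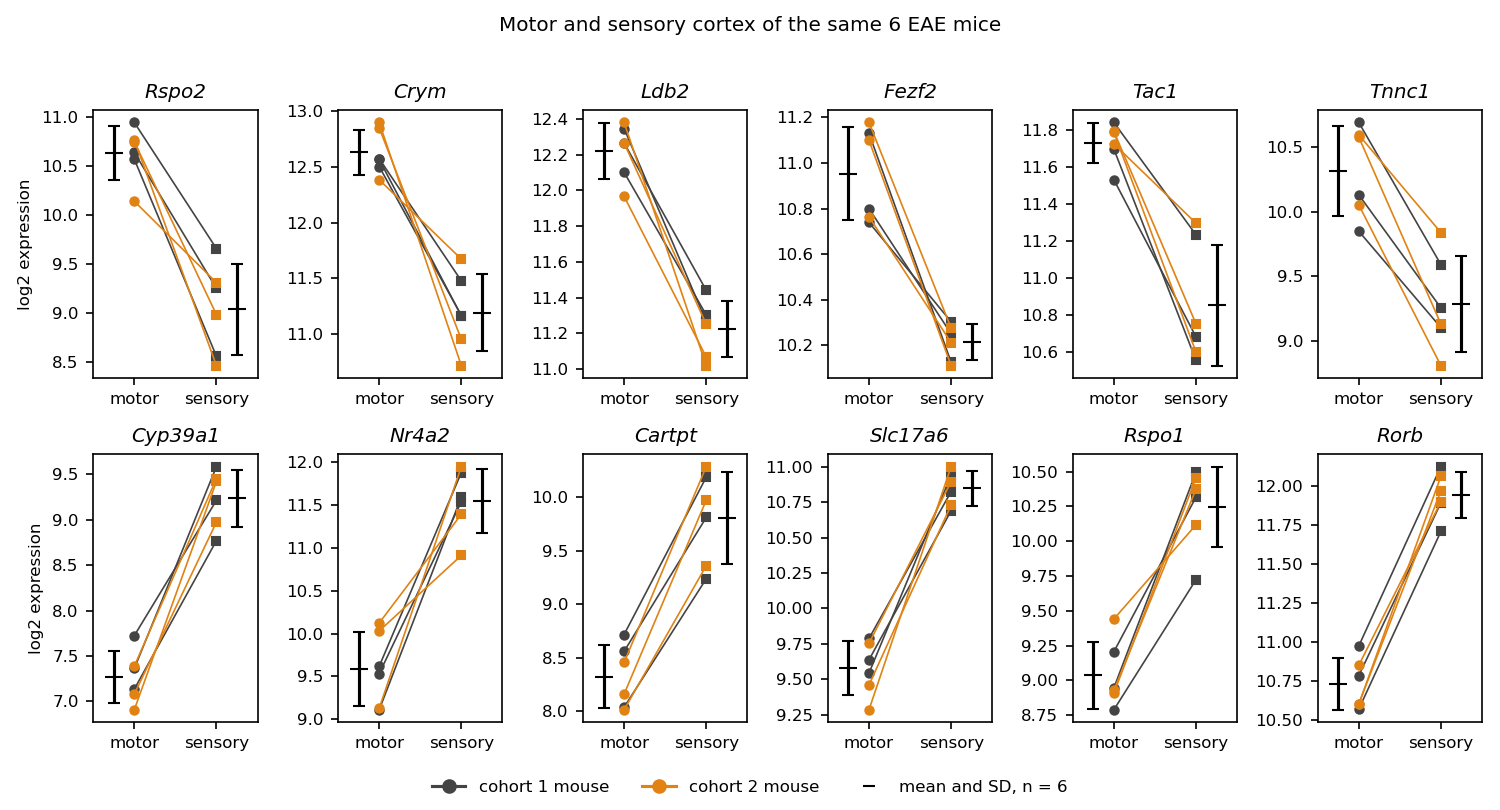
Log2 expression of 12 genes in motor (left, circles) and sensory cortex (right, squares) of the same 6 EAE mice, 1 line per mouse, grey for cohort 1 and orange for cohort 2, with the mean and SD of each area beside the points. The upper row shows genes higher in motor cortex and the lower row genes higher in sensory cortex; each line runs the same way in all 6 mice and no panel's groups overlap.

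Of the 47 lists, those of layer 4 and of layer 5 extratelencephalic neurons had the medians farthest from 0. The list counts below stand beside shares of 2.14% of all genes called toward motor and 1.86% toward sensory cortex. Of the 12 measured layer 4 genes, 11 were called higher in sensory cortex and none in motor cortex, with a list median of -0.70, while the median of all genes was 0.01. Besides Cyp39a1, Rorb and Rspo1 these included Unc5d, a netrin receptor, whose levels were 10.42 to 10.87 in motor and 11.45 to 11.54 in sensory cortex. Kcnip2, a modulator of A-type potassium channels, differed by -0.53 ± 0.05, and Plxnd1, a semaphorin receptor, by -0.55 ± 0.05. Scnn1a, a sodium channel subunit gene used to mark layer 4, differed by -0.51 ± 0.11, and in mouse 1 it was 0.10 higher in motor cortex. Leaving out mouse 2, 4, 5 or 6 took Scnn1a past 0.05 (adjusted p up to 0.123). Whrn, a scaffold protein gene, was the member that did not pass, at -0.07 ± 0.06. In the single mice, the list median lay between -0.91 and -0.63.

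Layer 5 markers went the other way. Of 12 genes of layer 5 extratelencephalic neurons, the cells that project to brainstem and spinal cord, 8 were called higher in motor cortex and 0 in sensory cortex, with a median of 0.53. Fezf2, the transcription factor that specifies these neurons, had levels of 10.74, 10.95 and 11.18 in motor and 10.11, 10.23 and 10.30 in sensory cortex. No motor array of Fezf2 fell within the sensory range, and the difference was 0.74 ± 0.09 (adjusted p = 0.00227). Ldb2, a LIM domain-binding protein, had levels of 11.97 to 12.38 in motor and 11.02 to 11.44 in sensory cortex, a difference of 1.00 ± 0.08. Bcl11b, the zinc finger protein that acts after Fezf2, differed by 0.43 ± 0.06, and Kcng1, a modulatory potassium channel subunit, by 0.79 ± 0.07, although its other probe set stood at -0.03. The members that did not pass were Pou3f1 (0.20), Parm1 (0.15), S100a10 (0.12) and Slco2a1 (-0.01). Among 9 other layer 5 genes, 4 were called, all toward motor cortex. They included Deptor, an mTOR-binding protein, at 0.61 ± 0.05, Trhr, the receptor of thyrotropin-releasing hormone, at 0.77 ± 0.12, and Lypd1, a GPI-anchored modulator of nicotinic receptors, at 0.71 ± 0.13. Without mouse 2 or mouse 4, Lypd1 did not pass (adjusted p up to 0.0730).

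The lists of upper and deepest layers held fewer calls than those of layers 4 and 5. Of 12 layer 2/3 genes, 2 were called toward sensory and none toward motor cortex (median -0.12, single mice -0.17 to -0.07). They were the homeobox genes Cux1, at -0.65 ± 0.07, and Cux2, at -0.47 ± 0.06, which also mark layer 4. Cux2 levels were 11.27 to 11.72 in motor and 11.96 to 12.29 in sensory cortex; another probe set of the gene with a larger variance gave -0.21 and did not pass (adjusted p = 0.732). Of 11 layer 6 corticothalamic genes, 1 was called: Zfpm2, a zinc finger cofactor, at 0.78 ± 0.16 toward motor cortex, which did not pass without mouse 2, 4 or 5. Tbr1 and Foxp2, the transcription factors of these neurons, stood at -0.07 ± 0.14 and 0.15 ± 0.18 and did not pass, with single mice between -0.54 and 0.48 for Tbr1 and between -0.48 and 0.90 for Foxp2. Of 7 layer 6b and subplate genes, Nr4a2 alone was called, at -1.95.

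**Figure D2:**
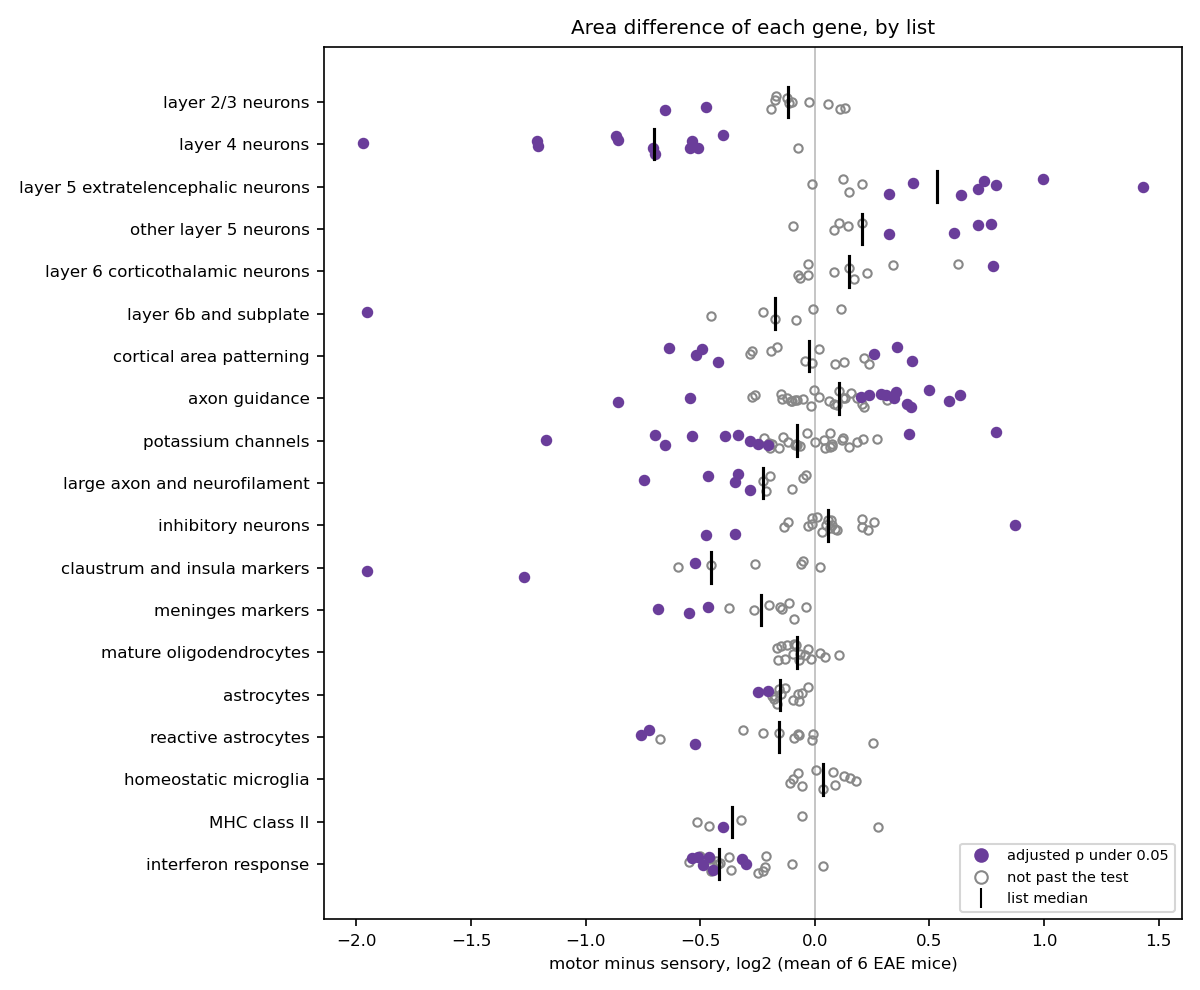
Motor minus sensory difference in EAE mice (log2, mean of 6 mice) for each gene of 19 lists; filled points passed an adjusted p of 0.05, open points did not, and the bar is the list median. Layer 4 genes lie left of 0 with a median of -0.70 and layer 5 extratelencephalic genes mostly right of 0 with a median of 0.53.

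Genes that pattern the cortical areas during development were called in both directions, 3 of 18 toward motor and 4 toward sensory cortex (median -0.03). Lmo4, a LIM-only protein, had levels of 13.47 to 13.74 in motor and 13.17 to 13.31 in sensory cortex, and the difference was 0.43 ± 0.05. Tenm3, a teneurin that guides topographic wiring, differed by -0.63 ± 0.07, Cdh6, a type II cadherin, by -0.52 ± 0.05, and Nr2f1, the nuclear receptor that promotes sensory at the expense of motor identity in mouse cortex, by -0.42 ± 0.07. Nr2f1 levels were 11.17 to 11.57 in motor and 11.59 to 11.91 in sensory cortex, so the areas did not overlap.

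Axon guidance genes leaned to motor cortex, with 11 of 37 called there and 2 in sensory cortex (median 0.11). Of all genes, 2.14% and 1.86% were called in these directions. In healthy mice the calls of this list were more even, 8 toward motor and 6 toward sensory cortex, with a median of 0.11. The exceptions toward sensory cortex in EAE mice were Unc5d and Plxnd1, both also in the layer 4 list. The semaphorin gene Sema3c differed by 0.35 ± 0.05 toward motor cortex. Nrp1 and Nrp2, the neuropilin co-receptors of class 3 semaphorins, differed by 0.50 ± 0.08 and 0.29 ± 0.05, Robo1, a Slit receptor, by 0.42 ± 0.08, its ligand Slit1 by 0.40 ± 0.07, and the netrin receptor Dcc by 0.59 ± 0.13; these 5 were picked from the list after their values were seen. Of 18 classical cadherins and protocadherins, 6 were called toward motor and 3 toward sensory cortex (median 0.20). Cdh11 had levels of 11.11 to 11.49 in motor and 10.52 to 10.89 in sensory cortex, a difference of 0.57 ± 0.05, and Pcdh17 differed by 0.46 ± 0.05.

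Potassium channel genes leaned to sensory cortex, with 9 of 36 called there and 2 in motor cortex (median -0.08). Kcnab3, with levels of 9.73 to 10.27 in motor and 10.94 to 11.52 in sensory cortex, had the largest difference of the list, and Kcng1 was one of the pair that went the other way. Among 23 sodium, calcium and HCN channel genes, 3 were called toward motor and 2 toward sensory cortex. Cacna1h, a T-type calcium channel, differed by 0.56 ± 0.07, the sodium channel β subunit gene Scn3b by 0.51 ± 0.08, and Cacng3, an AMPA receptor auxiliary subunit, by 0.26 ± 0.04. Cacng3 did not pass without mouse 2 or mouse 4.

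Most receptor genes were not called, but the share called toward motor cortex was above that of all genes. Toward motor cortex, where 2.14% of all genes were called, they were 3 of 20 glutamate receptor genes, 3 of 10 GABA receptor genes and 4 of 23 receptors for monoamines, acetylcholine and histamine. Toward sensory cortex, where 1.86% were called, there was 1 GABA receptor gene. The list medians were 0.06, 0.13 and 0.06, against 0.01 for all genes. Grm8, a presynaptic metabotropic glutamate receptor, had levels of 8.83 to 9.16 in motor and 8.01 to 8.35 in sensory cortex, a difference of 0.81 ± 0.08. Gabra5, the GABA-A subunit of extrasynaptic receptors, differed by 0.65 ± 0.07, while Gabrd, another extrasynaptic subunit, differed by -0.51 ± 0.07; its other probe set stood at 0.03. Adra1b, an α1 adrenoceptor, differed by 0.57 ± 0.08, the nicotinic subunit gene Chrna5 by 0.63 ± 0.11 and the serotonin receptor gene Htr2c by 0.63 ± 0.12. Gria1, Grin3a, Gabrb1, Chrna5 and Htr2c each lost the call when some single mice were left out.

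Of 19 neuropeptide genes, 3 were called toward motor and 2 toward sensory cortex, the largest being Cartpt. Tac1, the precursor of substance P, had levels of 11.53, 11.76 and 11.84 in motor and 10.56, 10.72 and 11.30 in sensory cortex. Its areas did not overlap and the difference was 0.87 ± 0.10 (adjusted p = 0.00213), although its other probe set stood at 0.14. Adcyap1, which encodes the peptide PACAP, had levels of 10.61 to 10.90 in motor and 9.85 to 10.11 in sensory cortex, a difference of 0.75 ± 0.05. Penk, the enkephalin precursor, stood at 0.18 ± 0.10 and did not pass.

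Inhibitory neuron genes showed no common direction, with 1 of 21 called toward motor cortex (Tac1) and 2 toward sensory cortex. Those toward sensory cortex were Maf, a transcription factor of interneurons, at -0.47 ± 0.06 and Pvalb, the calcium buffer of fast-spiking interneurons, at -0.35 ± 0.07. Pvalb had levels of 12.94 to 13.23 in motor and 13.30 to 13.57 in sensory cortex, and lost the call without mouse 1, 2, 4 or 5 (adjusted p up to 0.0829). The list of large axon and neurofilament genes leaned to sensory cortex: 5 of 11 were called there and none in motor cortex (median -0.23). It also holds synaptic, channel and interneuron genes. Pvalb is one of them and counts in this list as well as in the inhibitory list. Syt2, a fast synaptic calcium sensor, had levels of 10.13 to 10.53 in motor and 10.90 to 11.25 in sensory cortex, and differed by -0.75 ± 0.08. Vamp1, a synaptic vesicle SNARE protein, differed by -0.47 ± 0.06, and Kcnc1, a fast potassium channel, by -0.33 ± 0.05. Nefh, the heavy neurofilament subunit, stood at -0.22 ± 0.07 and did not pass. The other neurofilament genes Nefm, Nefl and Ina stood at -0.28, -0.10 and -0.05.

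Fos and Arc, which neurons switch on when active, varied more between mice than between areas. Fos had levels of 11.19 to 13.30 in EAE motor and 10.97 to 13.36 in EAE sensory cortex, and Arc of 11.19 to 12.62 in motor and 11.32 to 12.72 in sensory cortex. Neither passed, with differences of 0.09 ± 0.08 and -0.09 ± 0.07. Of the 17 genes of the list, 3 were called toward motor cortex and 1 toward sensory cortex. Egr2, a zinc finger transcription factor, had levels as far apart as 6.73 and 9.63 in motor and 6.39 and 8.99 in sensory cortex, yet all 6 mice were higher in motor cortex, by 0.23 to 0.95. Ptgs2, the inducible cyclooxygenase, differed by 0.66 ± 0.12 and lost the call without mouse 4 or 5, and Egr2 without mouse 5.

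Markers of tissue next to the dissected areas were checked in the same way. Among 9 markers of claustrum and insula, which lie below lateral cortex, 3 were called toward sensory cortex and 0 toward motor cortex, with a median of -0.45. They were Nr4a2, Car3 and Lxn, a carboxypeptidase inhibitor that differed by -0.52 ± 0.08. The mean level of the 9 markers was 9.09 to 9.41 over the motor arrays and 9.46 to 10.10 over the sensory arrays, without overlap. Part of that list (Nr4a2, Car3) is among the largest differences above, and the part of the dissection border in those differences was not tested. Thalamus markers were split, 1 of 11 toward motor (Ramp3) and 2 toward sensory cortex (Slc17a6, Tnnt1), with a median of -0.03. Striatum markers held 1 call of 10, Ppp1r1b, the dopamine-regulated phosphatase inhibitor DARPP-32, at -0.48 ± 0.05. Hippocampus markers held Spink8 toward motor and Neurod1 toward sensory cortex among 10, with a median of -0.02. Among 9 amygdala and piriform markers, 3 were toward motor (Rspo2, Meis2, Lypd1) and 1 toward sensory cortex (Slc17a6). None of the 9 choroid plexus and ependyma markers was called on the probe sets used, and none of 4 blood markers. Ttr, the transthyretin gene of choroid plexus, stood at -0.39 ± 0.10 on its brightest probe set, while its 3 other probe sets differed by -1.54 to -1.33, each with an unadjusted p under 0.05, so Ttr was lower in motor cortex on all of them. The part of choroid plexus tissue in the other differences was not tested.

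Myelin genes showed no called difference: 0 of 16 mature oligodendrocyte genes and 0 of 10 precursor genes passed, with medians of -0.08 and -0.01. Mbp, myelin basic protein, stood at -0.10 ± 0.04 with levels of 14.24 to 14.46 in EAE motor and 14.37 to 14.56 in EAE sensory cortex, and its adjusted p was 0.315. The list median ranged from -0.36 in mouse 1 to 0.13 in mouse 3. Homeostatic microglial genes also held 0 calls of 11, with a median of 0.04. P2ry12, the purine receptor of resting microglia, had levels of 9.53 to 10.14 in motor and 9.55 to 10.23 in sensory cortex.

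Astrocyte genes and some immune lists leaned to sensory cortex in the EAE mice, while B cell genes (median 0.08), neutrophil and monocyte genes (0.07) and homeostatic microglial genes (0.04) did not. Gfap, the intermediate filament protein that rises in reactive astrocytes, had levels of 10.19, 10.83 and 11.48 in EAE motor cortex, against 10.88, 11.48 and 12.36 in EAE sensory cortex. The groups overlapped because the mice differed, but within every mouse sensory cortex was higher, by 0.56 to 0.98, and the mean difference was -0.72 ± 0.07 (adjusted p = 0.000763). S1pr3, a sphingosine-1-phosphate receptor, differed by -0.52 ± 0.08. Of the 13 reactive astrocyte genes, these and Cxcl10 were the 3 called, all toward sensory cortex (median -0.16). Lcn2, the siderophore carrier lipocalin 2, stood at -0.67 ± 0.24 and did not pass (adjusted p = 0.216): 5 mice were higher in sensory cortex, by up to 1.87, and mouse 3 was 0.60 higher in motor cortex. Of 14 astrocyte genes, all 14 were lower in motor cortex by small amounts (median -0.15) and 2 passed, among them Kcnj10, the glial potassium channel, at -0.21 ± 0.05, which lost the call without any of 5 single mice.

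Interferon-response genes, the largest of the immune lists, also held the most calls of them. Of 22 genes, 7 were higher in sensory cortex, where 1.86% of all genes were called, and 0 in motor cortex, with a median of -0.42. Ifit3, an interferon-induced tetratricopeptide protein, had levels of 9.49, 10.38 and 11.24 in EAE motor and 10.34, 10.93 and 11.69 in EAE sensory cortex. The ranges overlapped, and in each mouse sensory cortex was higher, by 0.14 to 0.88, with a mean difference of -0.54 ± 0.11 (adjusted p = 0.0291). Usp18, which removes the ubiquitin-like modifier ISG15, differed by -0.51 ± 0.08, Ifitm3, an antiviral membrane protein, by -0.44 ± 0.07, and Oasl2, an oligoadenylate synthetase-like protein, by -0.49 ± 0.10. Ifit3, Oasl2 and Cxcl10 each lost the call without at least 3 of the single mice. The cohorts, which also differ in EAE grade (2.5 to 3 in cohort 1, 3 to 3.5 in cohort 2), were not tested against each other; the list median was -0.63 in cohort 1 and -0.13 in cohort 2, and in the 6 mice it ran -0.83, -0.54 and -0.45 in cohort 1 and -0.26, -0.10 and -0.13 in cohort 2. Ifit3 differed by -0.83 in cohort 1 and by -0.24 in cohort 2.

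Interferon switches its target genes on through STAT and IRF proteins, which bind a short repeated element called the interferon-stimulated response element. Its core, written here as GAAA, any 2 bases and GAAA again, was searched on both strands in the 250 bases before the RefSeq start sites (GRCm38.p6). It lay before 11 of the 18 interferon-list genes with a promoter entry (61.1%) and before 453 of 14453 tested genes (3.13%). Among called genes it lay before 11 of 278 higher in motor cortex (3.96%) and 14 of 258 higher in sensory cortex (5.43%). Of 6 called interferon-list genes with an entry, 3 had it (Ifit1, Ifit3 and Trim30a). Cxcl10 and B2m, picked by name from other lists, also had it, and other called immune genes are not shown singly. The stretches around the matches are shown for these genes, each called toward sensory cortex, with the matches in capitals, 5′ to 3′ on the gene's strand. On the opposite strand the core reads TTTC, any 2 bases and TTTC.
Ifit1, chr19:34640765-34640833, + strand: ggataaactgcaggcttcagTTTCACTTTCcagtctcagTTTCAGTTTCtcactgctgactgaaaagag
Ifit3, chr19:34583353-34583436, + strand: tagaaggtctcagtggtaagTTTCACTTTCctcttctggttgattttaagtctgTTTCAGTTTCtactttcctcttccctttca
Trim30a, chr7:104465200-104465249, - strand: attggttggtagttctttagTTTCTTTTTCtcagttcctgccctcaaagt
Cxcl10, chr5:92349073-92349122, - strand: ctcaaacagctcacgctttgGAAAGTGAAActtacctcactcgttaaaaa
B2m, chr2:122147528-122147577, + strand: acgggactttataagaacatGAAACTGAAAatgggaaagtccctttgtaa
Ifit1 and Ifit3 each carry 2 matches and the others 1. These matches describe the sequence and do not show binding.

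The other immune lists held few calls, each of them toward sensory cortex. Cxcl10, an interferon-induced chemokine that attracts T cells, had levels of 7.62, 8.16 and 9.00 in EAE motor and 8.25, 8.76 and 10.59 in EAE sensory cortex. All 6 mice were higher in sensory cortex, by at least 0.28, with a mean difference of -0.76 ± 0.16 (adjusted p = 0.0348), and of -1.10 in cohort 1 and -0.42 in cohort 2. Of 6 MHC class II genes H2-Ab1 alone passed, at -0.40 ± 0.08, with levels of 8.17 to 10.27 in motor and 8.56 to 10.52 in sensory cortex. Cd74, the invariant chain, stood at -0.46 ± 0.15 and H2-Aa at -0.51 ± 0.23, neither past the test, and in mouse 5 the median of the list was 0.35 toward motor cortex. Of 10 MHC class I and peptide loading genes, B2m, the shared light chain, at -0.23 ± 0.05 and the peptide transporter gene Tap2 at -0.30 ± 0.07 passed, while H2-K1 at -0.26 ± 0.07 did not (adjusted p = 0.0889). Tap2 lost the call whichever mouse was left out. Of 18 genes of activated microglia and macrophages, Lpl, lipoprotein lipase, at -0.63 ± 0.07 and Lgals3, galectin-3, at -0.52 ± 0.10 passed. Ccl5 among 9 T cell genes (-0.51 ± 0.11) and Plac8 among 13 neutrophil and monocyte genes (-0.50 ± 0.10) were the calls of those lists. Plac8 ran against most of its list, in which 9 of 13 genes were on the motor side and the median was 0.07. H2-Ab1, B2m, Lgals3, Ccl5 and Plac8 each lost the call without at least 4 of the single mice. None of 7 complement and none of 7 B cell genes passed.

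**Figure D3:**
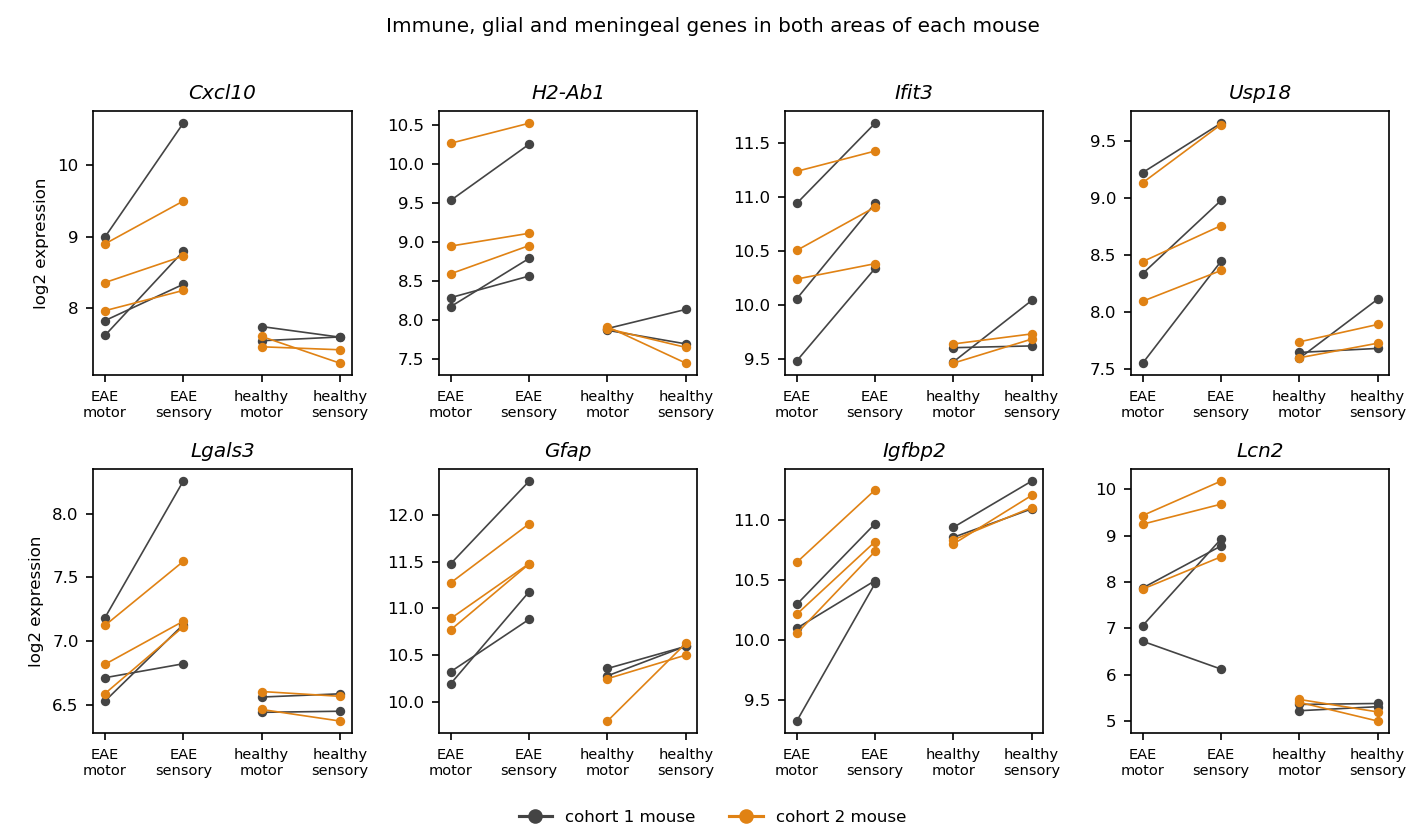
Log2 expression of 8 immune, glial and meningeal genes in both areas of each mouse, 1 line per mouse, EAE mice on the left and healthy mice on the right of each panel, grey for cohort 1 and orange for cohort 2. In EAE mice every line rises toward sensory cortex except that of 1 mouse for Lcn2, while the spread between EAE mice is wider than the step between areas for most genes.

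Meningeal and some vessel genes were also called toward sensory cortex. Of 12 meninges markers, 3 were called toward sensory cortex and all 12 were lower in motor cortex (median -0.23). They were Igfbp2, an IGF-binding protein, at -0.68 ± 0.09, Igf2, at -0.55 ± 0.12, and the fibrillar collagen gene Col3a1, at -0.46 ± 0.08. The other probe set stood at -0.12 for Igf2 and at -0.05 for Col3a1, neither with an unadjusted p under 0.05. The mean level of the 12 markers was 9.17 to 9.70 over EAE motor and 9.44 to 10.05 over EAE sensory arrays, and their median difference by mouse was 0.11, -0.65, -0.03, -0.34, -0.24 and -0.55. In the same mouse order the interferon medians were -0.83, -0.54, -0.45, -0.26, -0.10 and -0.13. The relation between these lists was not tested, nor was the part of meningeal tissue in the immune differences. Of 10 mural cell genes, Tagln, a smooth muscle actin-binding protein, at -0.35 ± 0.05 and Acta2, smooth muscle actin, at -0.26 ± 0.05 passed. Vwf, the endothelial clotting factor, differed by -0.40 ± 0.07, whereas 0 of 13 endothelial cell genes passed (median -0.05). Col3a1, Igf2, Vwf and Acta2 each lost the call without at least 3 of the single mice. Cholesterol synthesis and oxidative phosphorylation genes held no calls, 0 of 10 and 0 of 13. Of 13 glucocorticoid-responsive genes, the cell cycle inhibitor gene Cdkn1a at 0.26 ± 0.05 and Tsc22d3 at -0.22 ± 0.05 passed, in opposite directions, and both lost the call without at least 4 of the single mice.

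The second question was which of these differences were also present in healthy mice, which share no animal with the EAE mice. The same test in the 4 healthy mice called 1338 genes (7.35%), 804 higher in motor (4.42%) and 534 higher in sensory cortex (2.94%). Healthy sensory mouse 1 and healthy motor mouse 4 have a second chip processing date, so the areas of these 2 mice were processed on different dates, whereas all EAE arrays share 1 date. Without these 2 mice, 1578 genes were called. Of the 728 genes called in EAE mice, 721 had the same direction in healthy mice, 99%, against 69.6% of all 18194 genes, and 571 were called there in the same direction. Single healthy mice had the EAE direction for 699 to 717 of the 728. The 571 are 78.4% of the EAE list and 42.7% of the healthy list. They make up 324 of the 389 motor-higher genes (83.3%) and 247 of the 339 sensory-higher genes (72.9%). For the 20 genes at least 2-fold apart, the ratio of the healthy to the EAE difference had a median of 0.987 and ran from 0.449 (Spink8) to 1.272 (Crym).

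The neuronal lists had close to equal medians in both conditions. Layer 4 genes had -0.70 in EAE and -0.76 in healthy mice, with 11 of 12 called toward sensory cortex in each. Layer 5 extratelencephalic genes had 0.53 in EAE and 0.53 in healthy mice, with 8 and 9 of 12 called toward motor cortex, and the large axon list had -0.23 and -0.24. Rorb differed by -1.21 in EAE and -1.11 in healthy mice, Fezf2 by 0.74 and 0.70, Slc17a6 by -1.27 and -1.27 and Tac1 by 0.87 and 0.89. For Rorb the area difference in EAE minus that in healthy mice was -0.09 with a 95% interval of -0.31 to 0.12, and for Fezf2 it was 0.04 with an interval of -0.26 to 0.34. Differences up to those bounds remain possible.

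**Figure D4:**
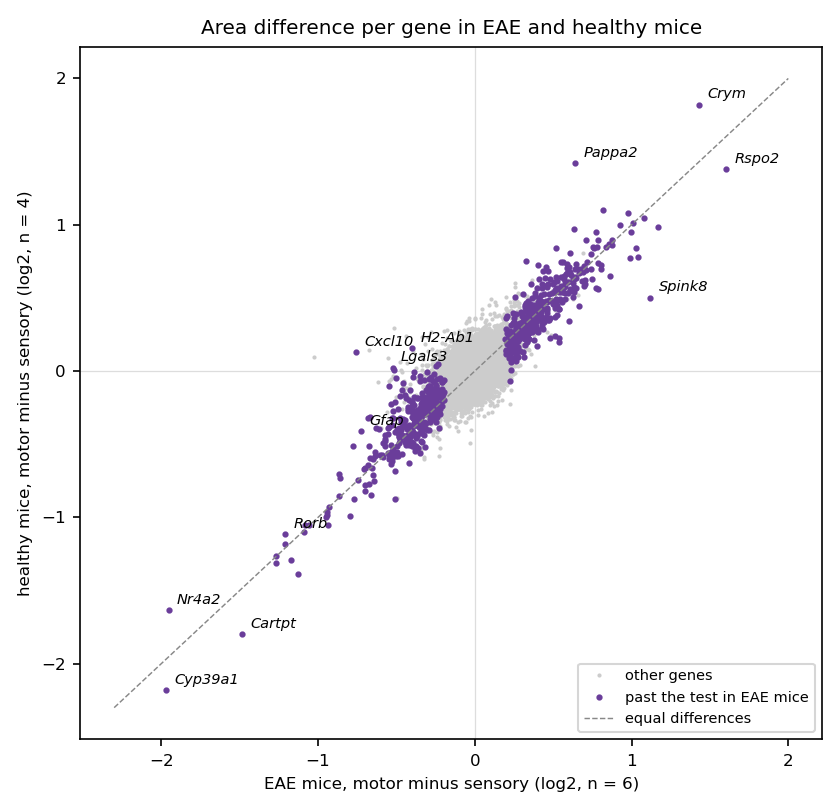
Motor minus sensory difference of each gene in 6 EAE mice (horizontal, log2) against 4 healthy mice (vertical, log2), with genes past the test in EAE mice in purple and the dashed line at equal differences. Of the 728 purple genes, 721 lie in the quadrants of equal sign. The 7 on the other side include the labelled genes Cxcl10, H2-Ab1 and Lgals3.

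Some immune lists had medians further apart, others did not, and the lists were not tested against each other. MHC class II genes had a median of -0.36 in EAE and 0.17 in healthy mice, and interferon-response genes -0.42 and -0.11. T cell genes had -0.03 in EAE and 0.01 in healthy mice, neutrophil and monocyte genes 0.07 and 0.06, B cell genes 0.08 and 0.03, and homeostatic microglial genes 0.04 and 0.08. Outside the immune lists, meninges markers had -0.23 in EAE and -0.06 in healthy mice, and reactive astrocyte genes -0.16 and 0.01. Claustrum and insula markers had -0.45 in EAE and -0.27 in healthy mice. The 7 EAE-called genes of opposite direction in healthy mice were H2-Ab1, Lgals3, Cxcl10, Ccl5, the astrocyte gene Aqp4, E330020D12Rik and C730027H18Rik. In healthy mice they stood at 0.16, 0.02, 0.13, 0.01, 0.04, 0.05 and -0.06, and none passed. C730027H18Rik alone was higher in motor cortex in EAE mice. Healthy levels of Cxcl10 were 7.46 to 7.74 in motor and 7.23 to 7.59 in sensory cortex, so that every healthy sensory array lay below every EAE sensory array. Gfap differed by -0.72 in EAE and by -0.41 in healthy mice, so a difference in the same direction was also present without disease. Its EAE minus healthy difference of -0.32 ± 0.13 did not pass (limma adjusted p = 0.9999).

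The difference between the conditions was tested itself, on each mouse's motor minus sensory value with cohort as a covariate. Limma called 0 of 18194 genes (0%), with a smallest adjusted p of 0.9999, while 422 genes (2.32%) had an unadjusted p under 0.05. That share is below what a threshold of 0.05 lets through when no gene differs. Of the 422 genes, 302 (1.66%) were shifted toward sensory cortex in EAE mice and 120 (0.660%) toward motor cortex. The 5 genes with the smallest p were H2-Ab1 at -0.56 ± 0.11, Spink8 at 0.62 ± 0.13, Pappa2, a protease that cleaves IGF-binding proteins, at -0.78 ± 0.16, Cxcl10 at -0.89 ± 0.19 and the ADP-ribosyltransferase gene Parp9. None of these passed the adjustment, so no gene's area difference was shown to differ between EAE and healthy mice. Among interferon-response genes, 9 of 22 had an unadjusted p under 0.05 toward sensory cortex in EAE mice and 0 toward motor cortex, and among MHC class II genes 4 of 6 and 0. Toward sensory cortex there were also 4 of 12 meninges markers, 4 of 13 reactive astrocyte genes and 5 of 18 genes of activated microglia and macrophages. Those lists held 0 toward motor cortex. MHC class I and peptide loading genes held 0 of 10 either way. No gene of the layer 4 list was among the 422, but the neuronal genes Cux2 (-0.30) and Cartpt (0.31) were. These counts by list were not tested. Spink8 levels were 8.30 to 9.08 and 7.40 to 7.76 in EAE motor and sensory cortex, against 7.27 to 7.76 and 6.69 to 7.21 in the healthy areas. Pappa2 levels were 6.89 to 7.91 and 6.47 to 6.86 in EAE motor and sensory cortex, against 7.89 to 8.23 and 6.47 to 6.83 in the healthy areas. The Pappa2 difference in EAE mice, 0.64 ± 0.12, was called but lost the call without mouse 2 or mouse 4.

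**Figure D5:**
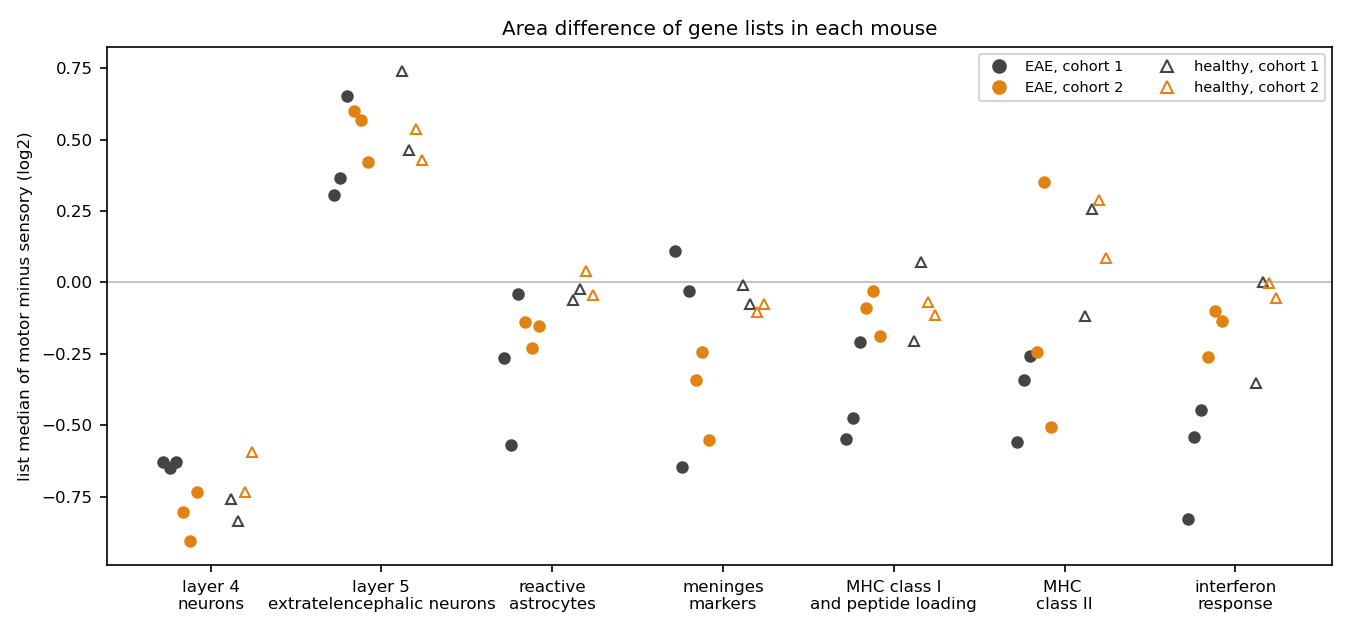
Median motor minus sensory difference (log2) of 7 gene lists in each mouse, filled circles for 6 EAE mice and open triangles for 4 healthy mice, grey for cohort 1 and orange for cohort 2. Layer 4 medians lie between -0.91 and -0.63 in EAE mice, and interferon medians between -0.83 and -0.10, with the 3 cohort 1 EAE mice lowest.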

How the data were processed

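Affymetrix arrays of 12 EAE and 8 healthy samples were read from a table of log2 values deposited by the authors, made with RMA and Partek per the submitters' processing notes whose versions these sources do not give. Such values are background-corrected, equalised between arrays and summarised over probes, which can compress differences of dim genes. No 2 arrays held identical values. Of 45101 probe sets, 34958 had 1 gene symbol in the platform annotation, 932 several and 9211 none listed; 34754 matched a RefSeq table (GRCm38.p6) by Entrez identifier. Each of the 18194 genes was represented by its brightest probe set (largest mean of the 20 arrays). The number of arrays limits the precision.

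Groups came from the labels. The labels' animal numbers show that the arrays of a number and condition share an animal, so motor minus sensory was fitted with the mouse as a block (limma 3.58.1, R 4.3.3, lmFit and eBayes, two-sided, Benjamini-Hochberg over all genes). Deviations from group means correlated within EAE mice at 0.31, 0.51, -0.06, 0.13, 0.20 and 0.44. EAE and healthy area differences were compared on per-mouse differences with cohort as a covariate. The fits were tested on simulated data.

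The genes named were the 15 largest called differences each way, up to 3 called members with the smallest p of each of 47 lists, a fixed set (Etv1 was not used here) and the 5 smallest p-values of the EAE minus healthy comparison; others were chosen after their values were seen. The comparison, the lists and the fixed genes were chosen with earlier results of these data known. Of 715 list entries, 654 were measured. Promoters came from RefSeq (GRCm38.p6). Alternatives were other normalization, filters, probe sets, models and samples; leaving out EAE mice 1 and 3 was added after seeing the data.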

Additional observations from a re-analysis of the deposited data

Results flagged for a closer look

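Values of 1 EAE mouse stood apart from those of the other 5 in 12 of 357 groups of 6 examined for the named genes, by the ratio of the gap to the range; chance alone gives about 1 in 20. In mouse 2, Plac8 was high in both areas, at 7.92 in motor cortex (others 6.74 to 7.18) and 8.98 in sensory cortex (others 6.95 to 7.52). The same mouse had Cux2 at 12.3 in sensory cortex, Cacng3 at 11.5 in sensory cortex (others 11.8 to 12.0) and Arc at 11.2 in motor cortex (others 12.2 to 12.6).

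In mouse 6, Meis2 was at 11.4 in motor cortex (others 11.8 to 11.9), which left a difference of -0.016 where the other mice had 0.55 to 0.74. That mouse also had Pcdh17 at 10.1 in sensory cortex (others 10.5 to 10.7) and a Gm13629 difference of -0.31 (others -1.26 to -0.92). Mouse 5 had Lypd1 at 9.18 in sensory cortex (others 9.76 to 10.0) and a Pcdh17 difference of 0.66 (others 0.37 to 0.46). Mouse 3 had Cbln4 at 10.8 in motor cortex (others 10.2 to 10.4).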

How the results depend on the processing

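The count of 728 genes depended on the setting, and the cause was not tested. Leaving out 1 mouse gave 315 to 882 genes (155 to 398 motor-higher, 160 to 484 sensory-higher, 72 to 136 of the list genes, against 129 with all mice). Cohort 1 alone gave 6 (2 motor-higher, 4 sensory-higher, 5 in the lists) and cohort 2 alone 227 (123, 104 and 63), each with 3 mice. The probe set of largest variance gave 458 (238 and 220), quantile normalization 590 motor-higher genes of 1038, all 20 arrays in 1 fit 1220 (654 and 566), and eBayes with trend and robust 1292 (700 and 592). Without the mouse as a block there were 581 (replicate block removed), and without mice 1 and 3, chosen after seeing the data, 621. The motor-higher share was 53.4% with all mice and 45.1% without mouse 3. In healthy mice 1338 genes became 606 to 1246 without 1 mouse and 797 without the replicate block. The EAE minus healthy comparison called 0 genes in every setting run, with the smallest adjusted p 0.0538 without EAE mice 1 and 3 and 198 genes at an unadjusted p under 0.05 without the replicate block. Of 103 named called genes, 69 were called whichever mouse was left out and all 103 kept their sign in every setting that gave them 1 value. These settings drew on the mice that gave the calls, so a kept sign follows largely from the selection. With every probe set tested on its own, 839 of 45101 were called, and 5 of the 103 genes (Car3, Gabrd, Kcng1, Nr4a2, Tsc22d3) had 1 other probe set of opposite sign, none with an unadjusted p under 0.05. A shared sign did not always mean a shared size. The other probe sets of Tac1 (0.14), Ryr1 (0.11), Htr2c (0.13) and Trhr (0.11) were far smaller, none with an unadjusted p under 0.05. Those of Slc17a6 (-1.28) and Adcyap1 (0.72) were close to the size given above. Uncalled Tbr1 ran from -0.18 to 0.021 as single mice were left out (above 0 without mouse 4 or 6) and was 0.047 in cohort 1, and uncalled Foxp2 ran from -0.0039 (without mouse 4) to 0.27. With 6 mice, the number of arrays limits the precision.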
